A study of Mus musculus with 4 samples.

Results

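CpG island promoters were taken here as accessible intervals that held at least 1 CpG island and whose summit lay within 1000 bases of exactly 1 gene start. They came from the interval lists of 4 ATAC-seq libraries, an assay in which a transposase cuts and tags open DNA. Of the 220733 listed intervals, 32802 (14.9%) met the rule, and intervals that shared at least 1 base across libraries merged into 8593 regions, 12.3% of the 69759 regions of the whole set. The comparison classes were 3007 regions at a start without an island and 1328 island regions within reach of more than 1 start. For 9 regions the deposited table carried a date in place of a gene name. The nearest starts of the others belonged to 8576 differently named genes, of which 8 had 2 regions.

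The cells were Lin-Sca1+Kit+ (LSK) cells, the bone marrow fraction that holds hematopoietic stem and early progenitor cells, sorted from mice, with 50000 cells spun down for each library. WT 1 and WT 2 came from p53+/+ mice, and R248W 1 and R248W 2 from p53R248W/+ mice, which carry 1 allele of the tumor suppressor p53 with a missense change in its DNA-binding domain and 1 wild-type allele. The question behind the series was how mutant p53 regulates transcription in these cells. The labels leave unsaid whether each library is a different mouse, so the p-values measure only the spread between these libraries, which may be technical. Values are given in the order WT 1, WT 2, R248W 1, R248W 2 throughout. The lists held 46720, 62478, 60385 and 51150 intervals, and sequencing depth was unknown. Of 12 stem and progenitor genes taken as markers of the gate, 12 were assigned an interval in all 4 libraries and 7 had one at the start. Of 18 genes of other cell types, 11 were assigned an interval in all 4 libraries, 3 had one at the start in all 4, Cpa3 and Pdgfrb among them, and 4 had no interval in any library (Cd8a, Ncr1, Hbb-bt and Ly6g). In at least 1 library, 8 of the 12 and 5 of the 18 had an interval at the start, against 58.7% of 21900 protein-coding genes. The share of the 12 markers was thus not far from that of all genes.

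CpG islands are short stretches of vertebrate DNA in which the CG dinucleotide, depleted elsewhere in the genome, has been kept. Most lie at gene starts, are free of DNA methylation and are bound by proteins with a CXXC domain, such as Cxxc1 and Kdm2b, while repressed islands can carry Polycomb complexes. They serve housekeeping genes expressed in nearly all cells and many regulators of development. Promoters without an island more often serve genes restricted to a few tissues. The promoter of Mdm2, the ubiquitin ligase that marks p53 for destruction, and that of Rbm38, a p53 target that encodes an RNA-binding protein, are shown as examples of the class. The promoter of Cd34, a surface marker of progenitors that had a start-site interval without an island in all 4 libraries, is the contrast. Each is the RefSeq sequence of the 250 bases before the start (GRCm38.p6, the assembly called mm10), 5′ to 3′ on the gene's strand, with each CG in capitals.
Mdm2, chr10:117710759-117711008, minus strand: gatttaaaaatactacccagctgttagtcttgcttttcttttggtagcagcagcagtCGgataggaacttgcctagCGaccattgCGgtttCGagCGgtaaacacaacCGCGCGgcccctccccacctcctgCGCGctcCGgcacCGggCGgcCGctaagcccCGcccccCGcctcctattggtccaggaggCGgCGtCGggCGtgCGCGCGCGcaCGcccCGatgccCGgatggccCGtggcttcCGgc
Rbm38, chr2:173021652-173021901, plus strand: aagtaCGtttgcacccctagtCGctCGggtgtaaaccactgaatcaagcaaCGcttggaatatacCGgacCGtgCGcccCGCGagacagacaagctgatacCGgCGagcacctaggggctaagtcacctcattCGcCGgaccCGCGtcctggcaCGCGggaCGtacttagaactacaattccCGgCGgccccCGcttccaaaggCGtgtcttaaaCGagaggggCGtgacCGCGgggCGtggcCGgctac
Cd34, chr1:194938571-194938820, plus strand: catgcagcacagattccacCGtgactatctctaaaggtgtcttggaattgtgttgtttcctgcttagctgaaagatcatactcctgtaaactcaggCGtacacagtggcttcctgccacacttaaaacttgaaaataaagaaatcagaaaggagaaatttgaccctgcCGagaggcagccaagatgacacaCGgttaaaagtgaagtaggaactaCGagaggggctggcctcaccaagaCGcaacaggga
Mdm2 held 29 CGs in these 250 bases, Rbm38 28 and Cd34 6. The G and C content was 65.6%, 61.6% and 46.4%.

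RefSeq windows of 300 bases, 250 before to 50 after a start, matched the start of 23848 of the 32802 intervals (72.7%) within 100 bases. Because fewer than 80% matched, the check of composition is void for the class as a whole, and the values describe the 6209 matched promoters only. Their ratio of observed to expected CGs averaged 0.79, against 0.40 at 1870 starts without an island and 0.46 over all 32851 RefSeq promoters, a contrast that the rule itself selects. The median promoter held 23 CGs, against 8 and 7. The GC box GGGCGG, which binds SP and KLF factors, was found on either strand in 74.2% of matched island promoters, 35.0% of starts without an island and 35.7% of all promoters. The ETS motif CCGGAAG was in 18.0%, 7.33% and 8.86%, and the NRF1 motif GCATGCG in 7.33%, 2.57% and 3.58%. The blood factor motifs went the other way, with the RUNX motif TGTGGT in 10.9%, 20.5% and 16.8%, and the GATA motif AGATAA in 5.07%, 11.6% and 11.2%. TATAAA was in 6.09%, 11.2% and 13.6%. These letters partly follow base composition, and a match is not a bound site. A p53 response element was counted only as an exact pair of RRRCWWGYYY (R is A or G, W is A or T, Y is C or T) with at most 13 bases between. No matched island promoter held it in this window, which 24 of all 32851 promoters (0.0731%) did. With so rare a pattern, its absence does not show that p53 does not bind these promoters. Sites with a mismatch or outside the window were not searched.

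CpG island promoter intervals numbered 7979, 8320, 8245 and 8258. Their number varied less than the whole lists, and their share of the list was 17.1%, 13.3%, 13.7% and 16.1%. WT libraries averaged 8149.5 ± 241 and R248W libraries 8251.5 ± 9.19 such intervals (SD, n = 2 of each genotype), and the exact permutation test, two-sided, gave p = 1, where 0.333 is the smallest p that 2 libraries against 2 allow. The intervals covered 15.0, 16.3, 16.8 and 15.2 Mb. Of the intervals with any start within 1000 bases, 79.6%, 77.3%, 77.6% and 78.7% held an island.

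CpG island promoters were longer and ranked higher in signal than starts without an island in every library. The median length was 1745, 1816, 1874 and 1711 bases, against 1269, 1274, 1308 and 1242.5 at starts without an island. The within-library difference was 513 ± 48.3 bases (SD, n = 4), with the same direction in 4 of 4 libraries and p = 0.125 by the exact sign-flip permutation test, two-sided, the smallest p that 4 libraries allow. An island is counted when it lies in the interval, so a longer interval can more readily qualify, and the part of this in the difference was not tested. The highest-bin signal of an interval is the authors' own value, with a scaling that no source gives, and was used only within each library's list. Its median was 135, 197, 202 and 133, against 67, 85, 89 and 65 at starts without an island. Ranked within the list, the median CpG island promoter stood at the 83.4th, 85.7th, 85.6th and 83.7th percentile. The difference from starts without an island was 22.2 ± 0.43 percentile points (SD, n = 4, higher in 4 of 4 libraries), with p = 0.125 by the same exact permutation test. Of the strongest 10% of each list, 57.4%, 51.3%, 52.4% and 55.5% were CpG island promoters. Genotype did not separate the libraries. Median lengths averaged 1780.5 ± 50.2 bases over the WT libraries and 1792.5 ± 115 over the R248W libraries (SD, n = 2, p = 1, exact permutation test).

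**Figure D1:**
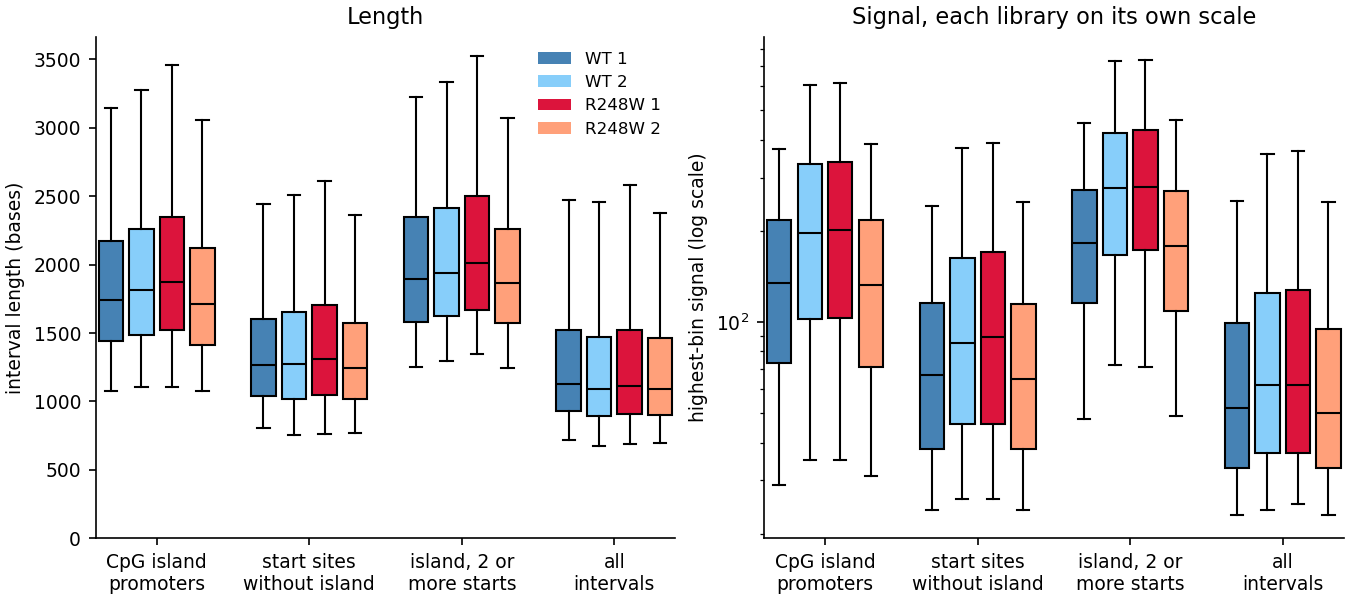
Length in bases (left) and highest-bin signal on a log axis (right) of the intervals of each class in each library. Boxes span the 25th to 75th percentile with the median as a line, and whiskers reach the 5th and 95th percentile. In each library the island promoter boxes stand above those of starts without an island and of all intervals, and WT 2 and R248W 1 show higher signal than the other 2 libraries in each class.

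Most intervals held 1 island. The 263, 302, 305 and 290 intervals with 2 islands had median lengths of 2422, 2448.5, 2614 and 2385.5 bases, against 1729, 1797, 1855.5 and 1694 with 1 island. Their median signal was 147, 182.5, 194 and 131.5, against 134, 198, 203 and 133 with 1 island, so it was higher with 2 than with 1 in WT 1 alone. The 27, 21, 24 and 22 intervals with 3 or more islands had a higher median signal than those with 1 in each library, 175, 281, 235 and 139.5. Length and signal went together loosely within the class, with Spearman's rho across intervals of 0.45, 0.39, 0.41 and 0.42, against 0.62, 0.63, 0.65 and 0.61 at starts without an island. Intervals are not independent replicates. Just inside the distance limit, with summits 951 to 1000 bases from the start, there were 44, 49, 44 and 51 intervals with median signals of 62.5, 109, 111 and 73. Just outside, at 1001 to 1050 bases, there were 33, 44, 41 and 37 with medians of 98, 97.5, 104 and 84. Within 50 bases of the start the medians were 135, 202.5, 206 and 136.

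The 7715 regions with a CpG island promoter interval in each library repeated closely between libraries. Their length varied by a median of 7.44% between libraries (coefficient of variation), their signal percentile had a median range of 5.23 points, and their summits a median range of 48 bases. Only 221 of them (2.86%) averaged at or below the 25th percentile of signal, and 2903 (37.6%) averaged above the 90th. The strongest was the promoter of Pja2, a ubiquitin ligase, at chr17:64330868-64333422, with a signal of 701, 1216, 1260 and 775. No interval of WT 1 had a higher signal, and its mean percentile over the libraries was the highest of the class.

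Next came Stt3a, a catalytic subunit of the oligosaccharyltransferase, with 697, 1246, 1244 and 768 at chr9:36766742-36769421. Qdpr, which regenerates the cofactor tetrahydrobiopterin, reached 639, 1117, 1135 and 791 at chr5:45448597-45451395. Ppp2r1a, the scaffold subunit of protein phosphatase 2A, reached 668, 1093, 1152 and 674. M6pr, the receptor that carries lysosomal enzymes, reached 628, 1204, 1180 and 734. The other 5 of the strongest 10 were 4932412D23Rik, Evi5l, Sc4mol, Arrdc4 and Khsrp. In each of the 10, all 4 libraries placed the interval at the very top of the list.

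At the other end, the weakest of these 7715 regions were those of Igfbpl1, Fbn2, Krtcap3, Dbndd2 and Ptgis. Igfbpl1 had a signal of 22, 21, 24 and 22, and Ptgis, which encodes prostacyclin synthase, had 19, 26, 25 and 23. They lie near the bottom of every list, whose lowest value was 16 in each library. The longest of the 7715 by mean length was Jun, the AP-1 transcription factor, whose interval at chr4:95046705-95055434 spanned 8339, 7498, 8729 and 8328 bases. Tgif1, a corepressor of TGF-beta signaling, spanned 7475, 7532, 7665 and 7457 bases, with 3 islands and a middling signal of 127, 218, 171 and 127. Mycn, a MYC family transcription factor active in stem cells, spanned 6682, 6737, 6651 and 6703 bases. Pcdh17 and Smad7 completed the longest 5 of these, a ranking that leaves out regions with no interval of the class in 1 or more libraries. Of the 483 among the 7715 that averaged 3000 bases or more, 290 averaged above the 90th percentile of signal and 5 at or below the 50th.

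Summits lay just upstream of the start. The median position was −31, −29, −31 and −25 bases, 53.1% to 54.0% of summits were within 100 bases of the start and 75.8% to 77.1% within 200. At starts without an island the median position was much the same, −27, −26.5, −31 and −26 bases, but 47.0% to 49.5% lay within 100 bases. The share of summits downstream of the start averaged 40.4% ± 0.53 for WT, and 41.3% ± 1.28 for R248W (SD, n = 2, p = 0.667, exact permutation test). The open stretch was not centered on the start. Where the strand was known from the matched promoter, island intervals reached a median of 739, 751, 778 and 719 bases upstream and 955, 1001, 1030 and 946 bases downstream, the side of the transcribed gene. Starts without an island were nearly symmetric, with 639, 644, 659 and 619 bases upstream and 650.5, 668, 697.5 and 649.5 downstream. The difference in asymmetry was 210 ± 12.7 bases (SD, n = 4), in the same direction in 4 of 4 libraries, with p = 0.125 by the exact sign-flip permutation test, two-sided. This comparison was chosen after the data were seen. Of the island intervals, 69.3% to 71.5% reached farther downstream than upstream, against 51.8% to 54.4%.

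**Figure D2:**
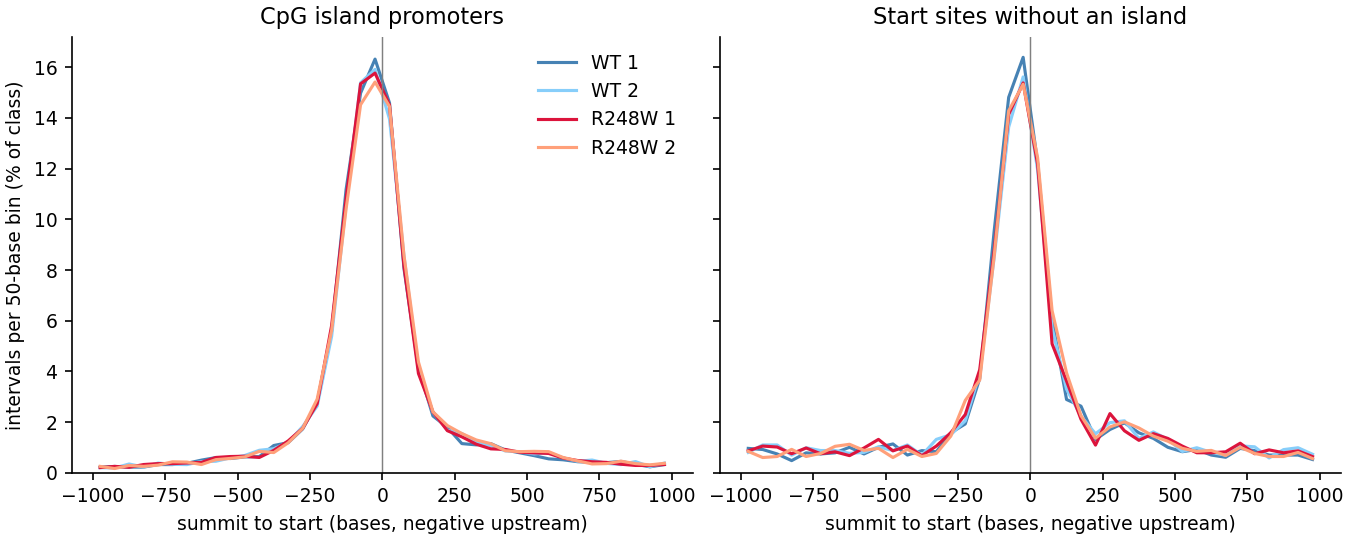
Share of intervals per 50-base bin by distance from the summit to the gene start in bases, negative upstream, for CpG island promoters (left) and start sites without an island (right), with 1 line per library. The 4 lines nearly coincide, both classes peak just upstream of the start, and starts without an island have heavier tails beyond 500 bases, upstream and downstream.

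The share of promoters with a CCAAT box, the site of the trimeric factor NF-Y, differed between weak and strong regions. The pentamer CCAAT was counted on both strands, as CCAAT or ATTGG. Over regions with a matched promoter and an interval in each library, split into 4 equal groups by mean signal percentile, 28.3%, 29.8%, 40.2% and 54.6% of promoters held it, from weakest to strongest. Their G and C content, 63.9%, 62.6%, 62.5% and 64.3%, did not follow that order, while their ratio of observed to expected CGs did, at 0.75, 0.80, 0.81 and 0.83. The part of base composition in the CCAAT shares was not tested. The same split within each library gave 28.6% to 30.2% in the weakest group and 54.3% to 54.9% in the strongest. Starts without an island showed 29.4% to 31.4% and 50.1% to 52.5%. Over the whole class the box was no more frequent (37.8%) than at starts without an island (38.2%) or in all promoters (37.4%). It was placed most often 51 to 100 bases before the start, with 29.0% of the occurrences in that bin of 50 bases. Promoters are not replicates, and no test was made.

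Of the 10 strongest regions, 9 had a matched promoter and all 9 of these held a CCAAT box. The 250 bases before the start of the strongest 2, Pja2 and Stt3a, and of Qdpr, are shown with CCAAT or ATTGG in capitals, from the same RefSeq table.
Pja2, chr17:64331884-64332133, minus strand: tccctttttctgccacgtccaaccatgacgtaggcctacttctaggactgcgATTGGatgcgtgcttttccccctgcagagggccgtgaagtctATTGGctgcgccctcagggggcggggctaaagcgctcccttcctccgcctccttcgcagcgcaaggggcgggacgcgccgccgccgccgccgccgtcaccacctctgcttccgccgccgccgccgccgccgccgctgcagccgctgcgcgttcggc
Stt3a, chr9:36767623-36767872, minus strand: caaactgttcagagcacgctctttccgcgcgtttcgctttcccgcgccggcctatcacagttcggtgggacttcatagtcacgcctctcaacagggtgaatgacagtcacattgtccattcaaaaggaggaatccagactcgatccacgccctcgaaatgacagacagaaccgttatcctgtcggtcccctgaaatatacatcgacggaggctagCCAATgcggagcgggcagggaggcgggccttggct
Qdpr, chr5:45450230-45450479, minus strand: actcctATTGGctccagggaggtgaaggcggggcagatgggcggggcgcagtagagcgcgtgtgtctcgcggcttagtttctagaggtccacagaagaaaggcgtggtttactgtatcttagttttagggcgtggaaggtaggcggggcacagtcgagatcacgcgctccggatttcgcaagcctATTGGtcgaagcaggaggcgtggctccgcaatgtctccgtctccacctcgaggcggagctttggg
Pja2 and Qdpr held 2 boxes each, on the opposite strand in both cases, and Stt3a 1. Pja2 also held 32 CGs, against 20 in Stt3a and 21 in Qdpr. The start in the deposited list lay 44 bases from the RefSeq start for Stt3a and 42 for Mdm2, and coincided for the other promoters shown.

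Other motifs were counted in the same groups. The GC box was in 70.7% of promoters in the weakest group and 81.9% in the strongest. The ETS motif was in 13.4%, 21.0%, 22.7% and 19.6% from weakest to strongest, lowest in the weakest group but not highest in the strongest. The ZNF143 motif ACTACAA was in 1.48%, 3.68%, 5.02% and 5.37%, in the same order as the CCAAT box, against 3.24% of all promoters. Split by length instead, the ETS motif was in 21.5%, 24.3%, 16.9% and 13.9% from shortest to longest, while the median number of CGs was 20, 22, 25 and 27. For the CCAAT box the shares by length were 36.3%, 40.5%, 38.2% and 38.0%.

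**Figure D3:**
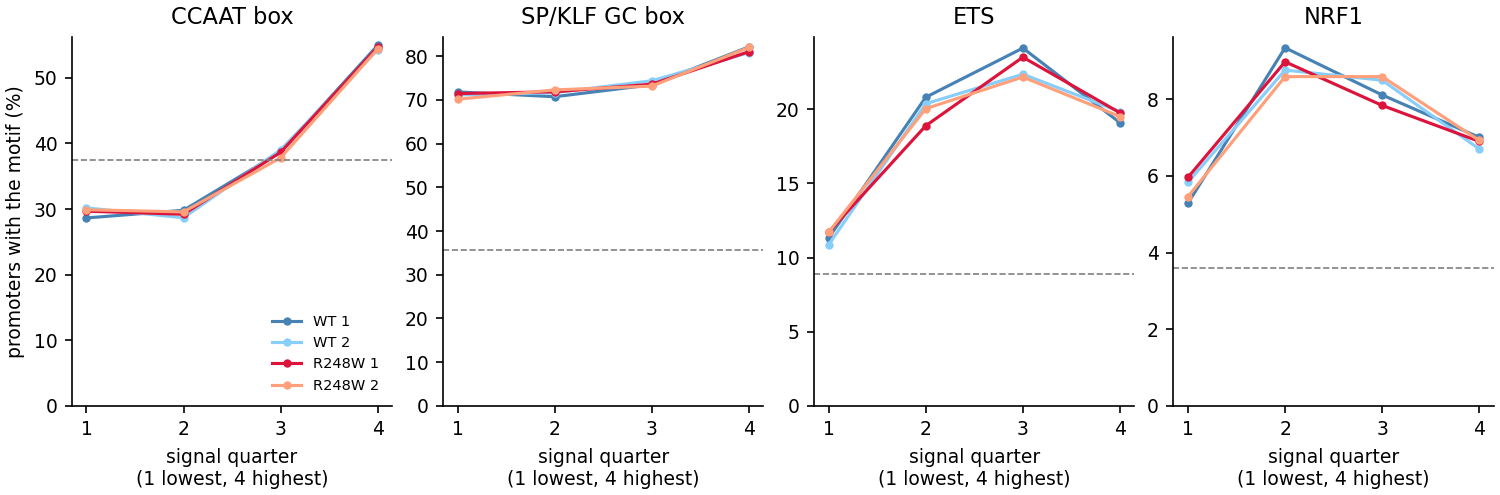
Share of matched CpG island promoters (in percent) that hold the CCAAT box, the GC box, the ETS motif or the NRF1 motif, by signal group from lowest (1) to highest (4) within each library. The dashed line is the share over all 32851 RefSeq promoters, each axis starts at 0, and CCAAT goes from about 29% in group 1 to 54.3% or more in group 4 in each library.

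A region counted as called in a library when any interval of that library shared at least 1 base with it. Of the 8593 CpG island promoter regions, 7977 (92.8%) were called in all 4 libraries, against 58.0% of all merged regions and 72.5% of starts without an island. A further 301 were called in 3 libraries, 170 in 2 and 145 (1.69%) in 1, where 15.9% of all merged regions were called in 1. Regions called in all 4 had a median signal percentile of 85.1, against 21.0, 13.9 and 9.05 for those called in 3, 2 and 1. The library most often lacking was WT 1, which has the shortest list: it alone lacked 222 regions, against 8 for WT 2, 25 for R248W 1 and 46 for R248W 2. Over all 69759 merged regions the counts were 5775, 245, 382 and 3256, also highest for WT 1. Taking each library in turn, 98.6%, 94.5%, 95.2% and 95.5% of its CpG island promoter intervals were also called in the other 3. At starts without an island it was 93.5%, 78.0%, 79.8% and 85.6%, a difference of 11.7 ± 5.26 percentage points (SD, n = 4, same direction in 4 of 4, p = 0.125, exact sign-flip permutation test, two-sided).

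**Figure D4:**
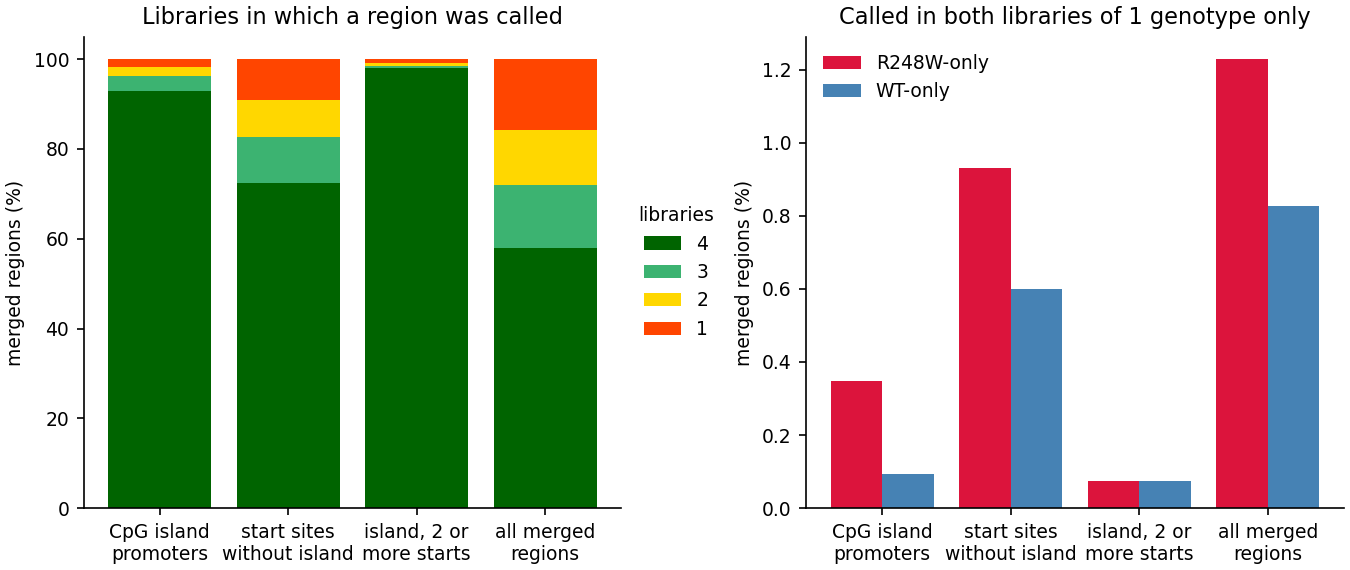
Left, share of merged regions (in percent) of each class called in 4, 3, 2 or 1 libraries. Right, share called in both libraries of 1 genotype and neither of the other. CpG island promoters have 92.8% of regions called in all 4 libraries, and 0.349% R248W-only and 0.0931% WT-only regions, below the 1.23% and 0.827% of all merged regions.

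Very few CpG island promoters were called in 1 genotype only. R248W-only regions, called in both R248W libraries and neither WT library, numbered 30 (0.349%), against 1.23% of all merged regions. WT-only regions numbered 8 (0.0931%), against 0.827%. Among regions called in 2 libraries, the commonest patterns were WT 2 with R248W 1 (68 regions) and WT 2 with R248W 2 (49). The same 2 patterns were the commonest over all 69759 merged regions, with 5197 and 1271, so they are not particular to CpG island promoters. The excess of R248W-only over WT-only regions was not kept when each list was cut to its strongest 46720 intervals, which gave 20 of each, where the background was 1.48% and 1.39% of merged regions. With 1 library left out the rule was looser, since only the remaining library of that genotype had to hold or lack a call. The counts were higher, and so was the background. Without WT 2 there were 246 R248W-only regions (2.89%, against 10.3% of all merged regions), without R248W 1 75 (0.878% against 3.65%) and without R248W 2 65 (0.763% against 6.73%). Without WT 1 there were 64 WT-only regions (0.747% against 8.18%), without R248W 1 54 (0.632% against 5.81%), without R248W 2 32 (0.376% against 1.41%) and without WT 2 16 (0.188% against 2.05%). Signals of single regions were not tested between genotypes, since no source gives how libraries were scaled.

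Most genotype-only regions were weak. The lower of the 2 signals had a median of 24 in the 27 R248W-only regions with a CpG island promoter interval in both R248W libraries and 20.5 in the 8 WT-only regions, and it reached 60 in 2 of each. The strongest R248W-only region was the promoter of Rbm38, at chr2:173021221-173023413, with a signal of 254 in R248W 1 and 169 in R248W 2, at the 89.9th and 88.8th percentile. Neither WT library had an interval there. A separate interval without an island, just upstream, was listed in all 4 libraries, with a signal of 183, 251, 235 and 152. It ended 326 bases before the Rbm38 region in WT 1 and 509 in WT 2. Accessibility next to the Rbm38 promoter was therefore listed in both genotypes, and the promoter interval in R248W only.

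Next was 6430531B16Rik, with 120 and 60. The remaining R248W-only regions ranked by signal were weaker. Pdx1, a pancreatic transcription factor, had 43 and 36, and Hapln4 34 and 33. Six3os1 had 32 and 41, Phactr3 32 and 38, Dmrt3 31 and 31, and Emx1, a forebrain regulator, 26 and 29. Of the 30, 13 lay within 2 kb of an interval of a WT library, at a gap of 4 bases for Phactr3. The strongest WT-only region was Zkscan14, a zinc finger gene, at chr5:145200866-145202474, with 146 in WT 1 and 196 in WT 2. Both R248W libraries had an interval less than 1000 bases past its end, with a signal of 530 in R248W 1 and 388 in R248W 2. Both WT libraries listed an interval that overlaps these, with 321 and 523. Gm9292 followed with 66 and 64, then Gm4983 with 41 and 23. Echdc2, Tescl, 1700106J16Rik, Rem1 and Kndc1 had a lower signal of 18 to 21.

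A missing call was not always a weak region. Among the 5487 CpG island promoter regions whose mean signal percentile was 75 or more, 27 (0.492%) lacked an interval in at least 1 library, a limit chosen after the values were seen. The mean was taken over the libraries with a CpG island promoter interval, so regions such as Fos and Il3ra qualified on 1 library. This share was not computed for the other classes, so it cannot be called particular to CpG island promoters. R248W 1 lacked 19 of the 27, WT 1 14, WT 2 10 and R248W 2 4. Of regions averaging under 2000 bases, 8 of 3035 (0.264%) lacked a call, against 10 of 1958 (0.511%) at 2000 to 3000 bases and 9 of 494 (1.82%) at 3000 bases or more. Klf6, a zinc finger factor, had a signal of 720 in WT 2 and 401 in R248W 2 and no interval in WT 1 or R248W 1, where the nearest was over 13 kb away. Fos, the partner of Jun in AP-1 and a gene of the immediate early response to stimuli, was listed in R248W 2 alone, with 184. Egr1, another such gene, had 198 in WT 1 and 212 in R248W 2 only, and Dusp1, a phosphatase that switches off MAP kinases, 179 in WT 2 and 178 in R248W 2 only.

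Blood genes were among them as well. Lyl1, a bHLH factor of stem cells, had 432 in WT 2 and 303 in R248W 2 and no interval in the other 2 libraries. Il3ra, the interleukin 3 receptor chain, had 245 in R248W 2 alone, over an interval of 5584 bases. Dnajb1, Polg2, Sox4, Mcl1 and Malat1 were among those lacking in R248W 1 only, and Dnajb1 had 450, 607 and 428 in the other libraries. Of the 47 missing calls, 13 had another interval of the same library within 2000 bases. Rbm38 and Zkscan14 belong to the 27. Why a library lacked the interval was not tested, and a missing interval at such a promoter does not show closed chromatin.

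The share of genes with a CpG island promoter region varied widely between gene lists. Of 21900 protein-coding genes, 34.2% had one in all 4 libraries and 38.0% in at least 1, and the median signal percentile of the first was 85.7. Of 30 cytosolic ribosomal protein genes, 19 had one in all 4 libraries, with a median percentile of 89.9. Rpl30 had a signal of 339, 464, 553 and 318, and Rplp0 280, 518, 491 and 365. Of 30 proteasome subunit genes it was 21, led by Psmc4 with 294, 558, 536 and 314. Of 20 aminoacyl-tRNA synthetase genes, which charge tRNAs, it was 13, led by Eprs with 353, 547, 533 and 338. Of 30 genes each, it was 17 for RNA polymerase II and its initiation factors, 18 for splicing, 16 for nuclear genes of oxidative phosphorylation, 15 for DNA replication and 14 for DNA repair. The genes of these 8 lists that lacked a region mostly had an island shared by more than 1 start, as at 11 oxidative phosphorylation and 11 repair genes.

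**Figure D5:**
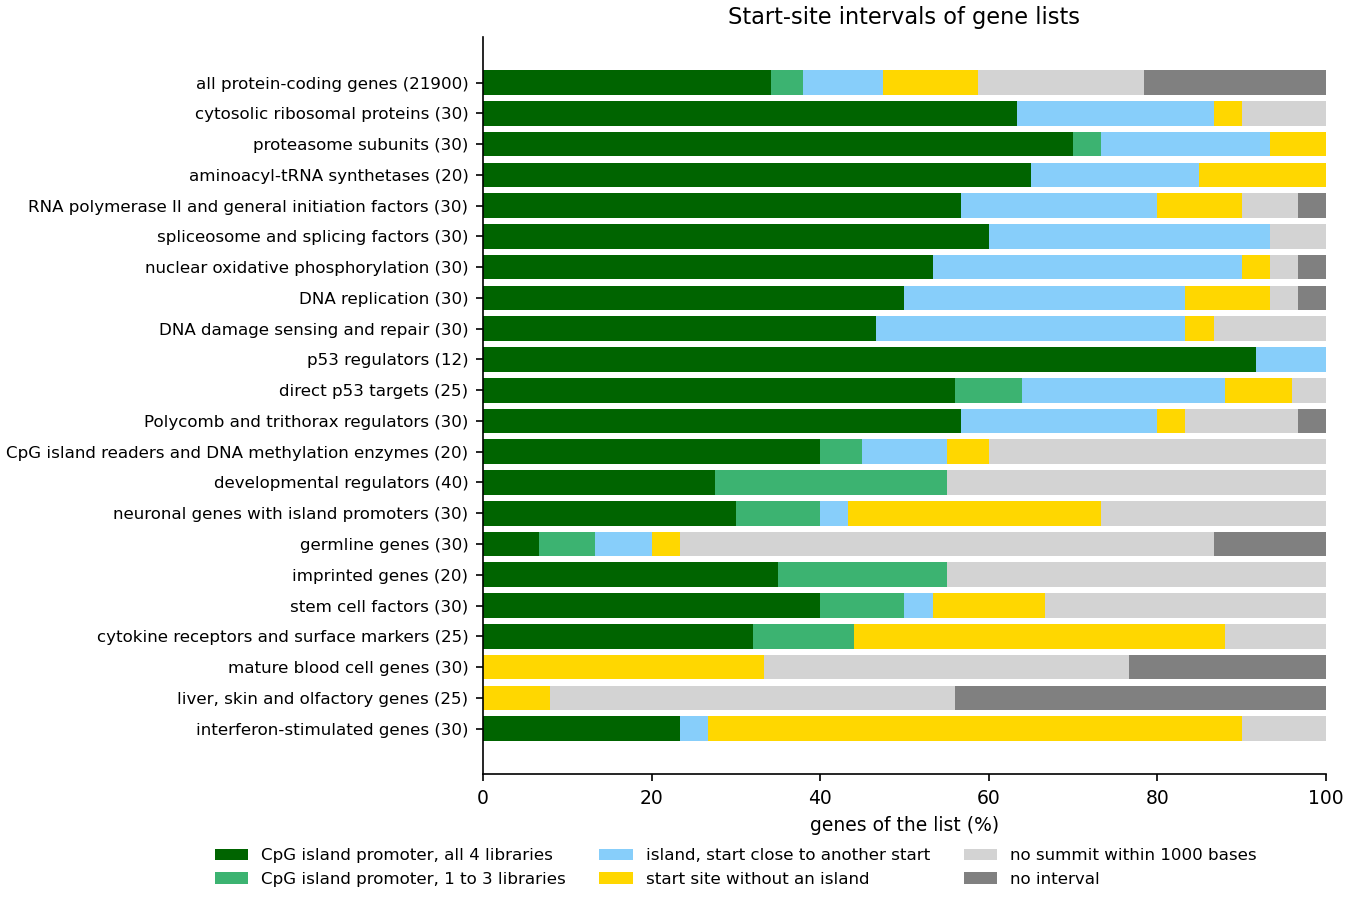
Share of the genes of each list (in percent, number of genes in parentheses) by the kind of interval at their start. Lists of general cell functions have island promoters or islands near more than 1 start for most genes, while mature blood cell genes and liver, skin and olfactory genes have none.

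Of 12 p53 regulators, 11 (91.7%) had a CpG island promoter region in all 4 libraries, against 34.2% of all protein-coding genes. In the lists of general cell functions this share ran from 46.7% (DNA damage sensing and repair) to 70% (proteasome subunits). The list of p53 regulators is short, and its share was not tested. Mdm2 had a signal of 216, 328, 328 and 241, and Mdm4, its partner in restraining p53, 129, 193, 157 and 105. The ranges of the genotypes overlap at both genes, on scales that may differ between libraries. Cop1, a ubiquitin ligase of p53, had 274, 512, 413 and 333. The remaining 1, Trp53 itself, starts in an interval with 2 islands that also holds the start of Wrap53, with a signal of 169, 222, 221 and 177. Its summit lay at −983, −999, −999 and −1063 bases relative to the start of Trp53, and so it met the rule only in R248W 2, as a promoter of Wrap53. Of 25 direct p53 targets, 14 (56%) had a region in all 4 libraries and 16 (64%) in at least 1. Over all protein-coding genes these shares were 34.2% and 38.0%. The 56% of the targets lay within the range of the lists of general cell functions, so it is not particular to p53 targets. Ccng1 had 288, 529, 476 and 326, Rrm2b, a ribonucleotide reductase subunit for DNA repair, 282, 399, 435 and 338, and the cell death gene Bax 68, 68, 64 and 55. Tnfrsf10b, a death receptor, was weak, with 26, 39, 27 and 23. Cdkn1a, the cell cycle inhibitor, had intervals but none with a summit within 1000 bases of its start. Rbm38 was the target with a genotype-only region.

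Of 30 Polycomb and trithorax genes, 17 had a region in all 4 libraries, with Kdm6a, an X-linked histone demethylase, at 227, 612, 454 and 521, and Ezh2, the Polycomb methyltransferase, at 282, 489, 463 and 299. Of 20 readers of CpG islands and DNA methylation enzymes, 8 (40%) did, near the 34.2% of all protein-coding genes. Cxxc1, which binds unmethylated CGs, had 378, 633, 636 and 370, Mbd2 267, 450, 494 and 317, and Tet2, which oxidizes methylcytosine, 236, 417, 429 and 253.

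Island promoters of genes with roles outside blood ranked lower in signal. Of 40 developmental regulators, 22 (55.0%) had an interval at the start in at least 1 library, near the 58.7% of all protein-coding genes. All 22 had a CpG island promoter region, against 64.7% of all protein-coding genes with an interval at the start. In all 4 libraries it was 11 (27.5% of the list, against 34.2% of all protein-coding genes), and their median signal percentile was 64.6. Tbx3 had 128, 176, 220 and 129, and Isl1 101, 205, 191 and 164, both regulators of organ formation. Pax3, of neural crest and muscle, had 24, 32, 27 and 26. Gata4 and Wnt1 were called in WT 2 alone, with 22 and 35, and Sox9 in the R248W libraries alone, with 29 and 24. The list of 30 neuronal genes was drawn up as neuronal genes with island promoters. Of the 22 with an interval at the start in at least 1 library, 12 (54.5%) had a CpG island promoter region. In all 4 libraries it was 9 (30.0% of the list), with a median percentile of 54.1. They ranged from Nefl with 27, 45, 35 and 36 to Chgb, a granin, with 160, 287, 231 and 226.

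Of 30 germline genes, some of which are kept silent by DNA methylation in the body's other cells, 2 had a CpG island promoter region in all 4 libraries. Dazl, an RNA-binding protein of germ cells, stood out with 150, 278, 279 and 189, at a mean percentile of 89.9. Tdrd6 had 25, 39, 48 and 34. Another 2, Tdrkh and Tex14, had an island within reach of more than 1 start, against 2078 of all 21900 protein-coding genes. Of 20 imprinted genes, expressed from 1 parental copy, 7 (35.0%) had a CpG island promoter region in all 4 libraries, close to the 34.2% of all protein-coding genes. The median percentile of these 7 was 61.6, and 11 genes had a region in at least 1 library. Kcnq1ot1 had 195, 289, 306 and 170, and Cdkn1c, a cell cycle inhibitor of quiescent stem cells, 135, 207, 154 and 90.

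The shares of stem cell factors and cytokine receptors with a CpG island promoter were near the 34.2% of all protein-coding genes, and none of the listed genes of mature blood cells had one. Of 30 stem cell factors, 12 (40%) had a region in all 4 libraries, with a median percentile of 91.0, and 15 had one in at least 1. The median length over these 15 was 2993.5 bases, against 1783.5 over all 8593 regions, the largest of the 19 lists with a member. Zfpm1, the GATA cofactor FOG1, had 341, 442, 460 and 291 over a mean of 4925.25 bases. Cebpa, a myeloid factor, had 262, 398, 456 and 255, and Meis1, a cofactor of HOX proteins, 200, 344, 361 and 233. Gata2, Tal1, Erg and Hoxa9 had intervals, but none with a summit within 1000 bases of the start. Of 25 cytokine receptors and surface markers, 8 (32.0%) had a region in all 4 libraries. Flt3, a receptor of multipotent progenitors, had 338, 573, 596 and 315, and Kit, which defines the LSK gate, 143, 277, 312 and 172. Another 11, Cd34 and Procr among them, had a start-site interval without an island, against 2458 of all 21900 protein-coding genes. Of 30 genes of mature blood cells, none had a CpG island promoter region and 10 had a start-site interval without an island. Of 30 interferon-stimulated genes, 7 (23.3%) had one in all 4 libraries, led by Stat2 with 234, 428, 406 and 285, and 19 had a start without an island. Among 25 liver, skin and olfactory genes there were none.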

How the data were processed

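The deposited table lists accessible intervals called by the authors separately for each library. The peak caller MACS 1.4.2 and genome build mm10 are named in the submitters' processing notes. How reads were aligned and filtered, whether read ends were shifted for transposase insertion, the depth and the scaling of the signal are not given in the sources used. Per the file headers, each interval has a highest-bin signal as the authors computed it, a length, and the CpG islands, genes and distances to starts they assigned. A different depth or scaling changes which weak intervals are listed. Length equals end minus start in all 220733 rows, so starts may be counted from 0. Coordinates are printed as deposited.

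Signal percentiles were ranks within a library's list. Merging and calls required 1 shared base. Samples were grouped by the genotype in the labels. Libraries were compared by exact permutation tests over libraries, 2 against 2, and classes by exact sign-flip permutation tests over the 4 within-library differences. The code for merging and counting was run on simulated data of 69759 regions, where all 200 planted R248W-only regions were recovered. By construction these were present in both R248W libraries and absent from both WT libraries. Their recovery therefore checks the code only and gives no rate of false calls. No test per region, set test or resampling was made. Of 20811 gene names in the table, 96.2% matched RefSeq, and the background was 21900 protein-coding genes. Promoter windows came from RefSeq (GRCm38.p6, 32851 windows).

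The members and the 21 gene lists were chosen with earlier results of these data known. Named regions were the 10 strongest, 5 weakest and 5 longest with an interval in each library, up to 8 genotype-only regions per direction by the lower signal, the strongest members of each list, markers, and Trp53, Mdm2 and Mdm4. Other genes named, such as those with missing calls, were chosen after their values were seen. Alternatives were the best 50% of each list, 46720 intervals per library, X and Y left out, windows of 500 and 2000 bases, any number of starts, 50% reciprocal overlap, calls by member intervals only, a replicate block and each library left out. Analyses used python 3.11.15, pandas 2.3.3 and scipy 1.17.1.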

Additional observations from a re-analysis of the deposited data

How the results depend on the processing

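Of 99 values recomputed under the alternatives, 7 genotype differences reversed direction and 10 counts of genotype-only regions moved. The other 82 reversed no direction, but some changed much in size. The median length difference between genotypes, for example, was 12 bases as reported and 93.5 bases without R248W replicate 2. The differences in length, signal percentile and sharing of calls between CpG island promoters and starts without an island kept their direction under every alternative run (405 to 579 bases, 10.9 to 25.4 percentile points and 9.15 to 15 percentage points). None of the genotype differences was past a threshold, and their sign was not stable. With 46720 intervals per library, the difference in the share of the list, R248W minus WT, was 0.0685 percentage points in place of -0.298. Leaving out each library in turn gave -68.5 to 272 intervals, -2.18 to 1.58 percentage points of the list, -69.5 to 93.5 bases of median length and -0.0294 to 1.78 percentage points of summits downstream of the start. R248W-only regions numbered 38 to 246 without each library (0.444% to 2.89%, against 1.60% to 10.3% of all merged regions), and WT-only regions 16 to 64 (0.188% to 0.747%, against 1.41% to 8.18%). WT-only regions also moved from 8 to 17 with the best 50% of each list (0.228%, against 0.711%) and to 20 with 46720 intervals per library (0.238%, against 1.39%). With calls by member intervals only they moved to 19, a setting without a background share. The cause was not tested, beyond the alternatives' own use of fewer intervals or libraries.

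The libraries share replicate numbers, but nothing in the labels says that a number marks a shared mouse or day. With the replicate block, the differences stayed at 102 intervals, -0.298 percentage points of the list and 12 bases, each with p = 1 by the exact permutation test within pairs, and at 0.877 percentage points of downstream summits with p = 0.5. The block changed no call. The 239 of 577 list genes with a region in all 4 libraries became 219 with the best 50% of each list. Over all 21900 protein-coding genes, 7492 (34.2%) became 6308 (28.8%). Limits: 2 libraries per genotype cannot reach p = 0.05, depth and scaling are unknown, and an interval below the authors' threshold, or at some strong promoters, is missing without a value.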

Other observations

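CpG island promoters on the X chromosome ranked lower than those on the autosomes. In WT 1, WT 2, R248W 1 and R248W 2, X-linked intervals had a median signal percentile of 75.2, 80.8, 80.4 and 77.6, against 83.6, 85.8, 85.8 and 83.9 on the other chromosomes, lower in 4 of 4 libraries. The rank difference was not tested, and no region of the class lay on the Y chromosome. Intervals of islands within reach of more than 1 start were stronger still than CpG island promoters, with a median percentile of 90.0, 91.5, 91.3 and 90.0, and 98.0% of their regions were called in all 4 libraries.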
